A study of Homo sapiens with 10 samples.

Results

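The ciliogenesis genes described here are 43 genes whose products build or equip the primary cilium, taken by symbol from the 40664 rows of the deposited gene table. They comprise 11 subunits of intraflagellar transport complex B (IFT-B), 6 of complex A (IFT-A), 3 ciliary motor subunits, 7 BBSome subunits, 3 factors that assemble or recruit the BBSome, 5 distal appendage proteins, 2 regulators of cilium initiation, 5 transition zone proteins and the tubulin glycylase TTLL3. All 43 were in the table, and all 43 had enough counts to be among the 13990 genes tested. They were measured in total RNA of hTERT RPE-1, an established human line of retinal pigment epithelium, immortalised with telomerase and widely used to study primary cilia. Cells were grown on a soft substrate of 10 kPa as controls (2 libraries) or with siNemp1 (2 libraries), and on a stiff substrate of 120 kPa as controls (3 libraries) or with siNemp1 (3 libraries). siNemp1 is a small interfering RNA treatment against NEMP1, a protein of the inner nuclear membrane. The sources used here do not give what the control cells received, the time after transfection, or whether serum was withdrawn, which makes RPE-1 cells grow cilia. The labels do not say that replicates were separate cultures, so every p-value reflects the spread among these libraries alone, and that spread may be technical.

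A primary cilium starts when the mother centriole docks to a membrane through its distal appendages. Its cap protein CCP110 is then lost, and the kinase TTBK2, brought in by CEP164, licenses outgrowth of the axoneme. IFT-B trains driven by the kinesin motor carry tubulin and other cargo to the tip, and IFT-A trains driven by the dynein motor return it. The BBSome, recruited to membranes by the small GTPase ARL6, links membrane proteins to the trains, and the transition zone gates the base. Many genes of these complexes carry an X-box in their promoters, the binding motif of RFX transcription factors.

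The X-box was therefore searched for in the promoters, as GTNNCC and GGNAAC with a spacer of 0 to 3 bases, on both strands. The windows were the RefSeq promoter sequences (GRCh38.p14), 300 bases each and 250 of them before a start that RefSeq gives for the gene. Of the 43 members 38 had a promoter entry. 6 of these 38 (15.8%) held at least 1 match, against 793 of all 27305 promoters (2.9%). The share is not particular to the members. Among the other gene lists counted below it ran from 0% (Hedgehog pathway, 12 promoters) to 29.4% (further transition zone genes, 5 of 17). Further IFT and motor subunits had 13.3%, and genes of centrioles, satellites and the ciliary vesicle 4%. The 6 members with a match were IFT57, IFT74, IFT122, ARL6, TCTN1 and TCTN3. One match for each is printed 5′ to 3′ on the gene's strand with the motif in capitals, because these 6 promoters are the ones that share a sequence feature, and their genes are followed below. The first lies at chr3:97764727-97764754 (plus strand), with its motif ending 11 bases before the RefSeq start of its window. The second lies at chr3:108222434-108222461 (minus), the third at chr9:26956377-26956403 (plus) and the fourth at chr10:95694123-95694149 (minus). The last pair are the motifs alone, at chr3:129440212-129440226 (plus) and chr12:110614129-110614141 (plus). Gene spans in the GENCODE annotation begin earlier, at 97764521 for ARL6 and 26947039 for IFT74. By that annotation the printed stretches lie inside their genes, that of TCTN3 across the 5′ edge. The stretch around another ARL6 match, at chr3:97764365-97764420 (plus), lies before the GENCODE start and is not printed.
ARL6: agctcctGTTGCCAAGGGAACggtgcct
IFT57: gagtctaGTTTCCCTGGTGACggattgt
IFT74: cgcccccGTTGCCGGGATACgccgcgg
TCTN3: actgacgGTTGCCAGGCAACggaggca
IFT122: GTTGCCAGGGGTAAC
TCTN1: GTTGCCGGGCAAC
A match describes letters only. No binding was measured here.

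The libraries held 17.95 to 23.8 M estimated counts each (M for 1000000), and the level of a gene is given as counts per 1000000 (CPM) after scaling between libraries. NEMP1 was lower in all 5 siNemp1 libraries (4.11 to 8.22 CPM) than in all 5 control libraries (14 to 18.3 CPM). Mitochondrially encoded transcripts took 1.48% to 1.6% of counts at 10 kPa, 0.913% to 1.73% in control at 120 kPa and 0.709% to 1.06% in siNemp1 at 120 kPa. Of 13 markers of retinal pigment epithelium in the table, the keratins KRT8 (755 to 1205 CPM) and KRT18 (500 to 772 CPM) and the regulator MITF (81.1 to 154 CPM) were well expressed, while the visual cycle genes RPE65 and RLBP1 and the thyroxine carrier TTR stayed under 0.1 CPM in every library. Of 14 markers of motile cilia in the table, 8 were under 0.5 CPM in every library, and the summed level of the list ran from 6.43 to 11.9 CPM over all groups. FOXJ1, the regulator of motile cilia, was listed at 0 in every library. The members' mean levels ran from 0.714 CPM (BBS5) over a median of 21.8 CPM to 387 CPM (TCTN3). Divided by transcript length, they ran from 0.205 to 141 CPM per kb with a median of 5.82, and TCTN3 and BBS5 kept the ends of that order. BBS5 and FBF1 lay under a mean of 2 CPM, so their values rest on few reads.

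**Figure D1:**
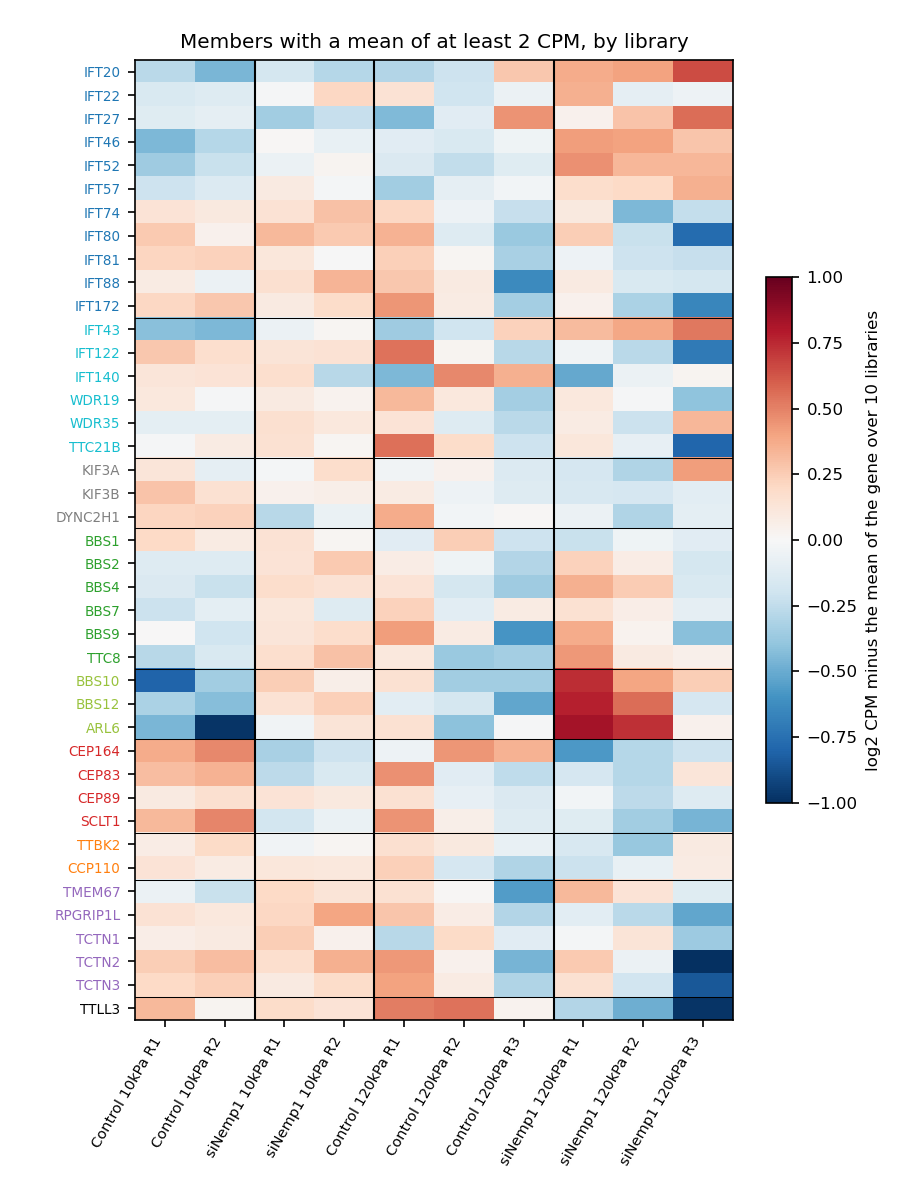
Level of the 41 members with a mean of at least 2 CPM in each of the 10 libraries, as log2 CPM minus the gene's mean over the libraries; rows are grouped by role, with names coloured by role, and columns by group with their replicate number (R). BBS10, BBS12 and ARL6 are red in replicates 1 and 2 of siNemp1 at 120 kPa, and replicate 3 lies below replicate 1 for 33 of all 43 members in control and 28 in siNemp1 at that stiffness.

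The first comparison asked which of these genes differ between siNemp1 and control cells, averaged over both stiffnesses. Log2 differences ran from -0.65 for CEP164, a distal appendage gene, to 0.69 for ARL6, which recruits the BBSome. In the fit of all 10 libraries, 2 of the 43 members passed edgeR's quasi-likelihood test at a Benjamini-Hochberg adjusted p under 0.05, IFT52 upward and CEP164 downward. Over all genes tested 1.29% passed, 0.858% upward and 0.429% downward. With the replicate number as a further term, called the replicate block below, 13 members passed (10 up, 3 down) against 10.8% of all genes, 6.58% upward and 4.17% downward. The members' median log2 difference was -0.02, beside -0.0032 for all genes, with 20 members above 0 and 23 below. Of the distal appendage genes 1 of 5 passed without the block and 2 of 5 with it, and the values of all 5 were below 0 at each stiffness. For CEP89 at 10 kPa this was slight, with a mean of 52.6 CPM in siNemp1 against 52.9 in control. The values of FBF1, with a mean of 1.16 CPM, rest on few reads. Of BBS10, BBS12 and ARL6 none passed without the block (adjusted p 0.0652 to 0.109) and all 3 with it, and their values were above 0 at each stiffness. DESeq2 called 8 of the members (7 up, 1 down) and 9.73% of all genes. Without the block, edgeR called 0 of the 43 under upper-quartile scaling or when given the size factors of DESeq2.

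**Figure D2:**
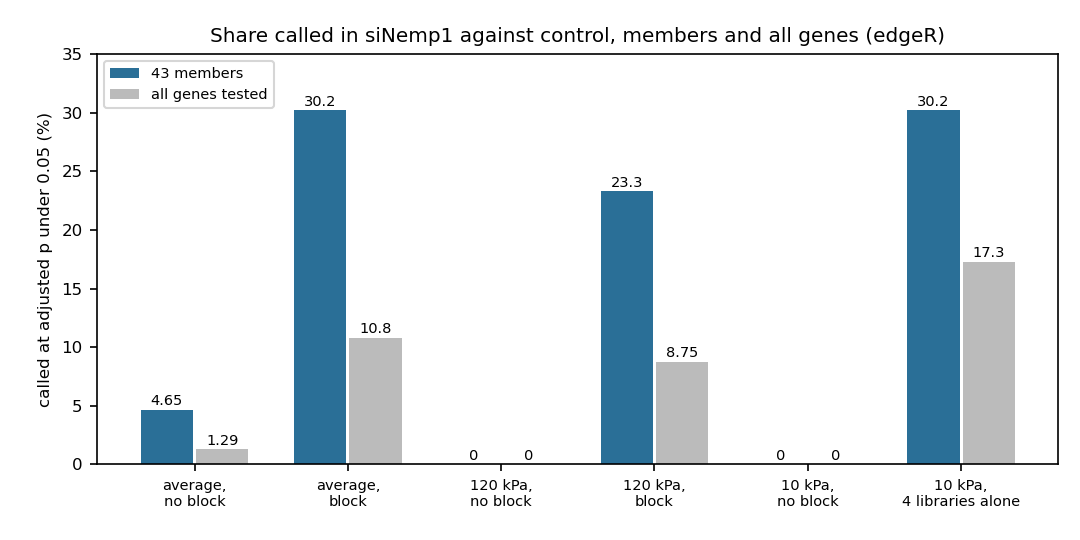
Share of the 43 members (blue) and of all genes tested (grey) called at an adjusted p under 0.05 in siNemp1 against control, in percent, for 3 contrasts and 2 edgeR fits of each. The second fit at 10 kPa is that of its 4 libraries alone. Among the fits drawn, the members' bar stands above the grey bar in the 4 that called any gene, from 4.65% beside 1.29% to 30.2% beside 10.8%. Fits not drawn went the other way. The blocked fit of all libraries at 10 kPa called no member beside 0.0286% of all genes. The average under upper-quartile scaling called no member beside 71 genes.

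At each stiffness alone, 0 members passed in the fit of all libraries that had no block. At 120 kPa 12 members were at an unadjusted p under 0.05, the lowest adjusted p was 0.0589, and DESeq2 called 4 (IFT46, IFT52, CEP164, TTLL3) and 6.19% of all genes. On the soft substrate 9 were at an unadjusted p under 0.05, and DESeq2 called 0 (0.112% of all genes). Over all genes the edgeR fit called 0% at each stiffness. The fit with the replicate block called 10 members at 120 kPa, 7 up and 3 down, where 8.75% of all genes passed, 6.24% upward and 2.51% downward. At 10 kPa the blocked fit of all libraries called 0 members (12 at an unadjusted p under 0.05, lowest adjusted p 0.267) and 0.0286% of all genes. A fit of the 4 libraries at 10 kPa alone called 13, 9 up and 4 down, where 17.3% of all genes passed, 8.10% upward and 9.19% downward. These 4 libraries lay close together, with a common dispersion of 0.00423 against 0.0387 over all 10, so smaller differences passed there. The calls at 120 kPa depended on the libraries of replicate 2: without that pair the blocked fit called 0 members and 2 of 13879 genes in all. Without pair 1 it called 10 members and 1552 of 13860 genes, and without pair 3 it called 6 members and 755 of 13744 genes.

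The agreement between stiffnesses described next rests on this fit of the 4 libraries for its calls at 10 kPa. Libraries at 10 kPa and at 120 kPa are separate, so the members' values at one stiffness can be set beside those at the other. The calls are not independent. The blocked fit at 120 kPa takes its spread and its replicate term from all 10 libraries, those at 10 kPa included. The 6 genes IFT46, IFT52, IFT43, BBS10, BBS12 and CEP164 were called in both the blocked fit at 120 kPa and the fit of the 4 libraries at 10 kPa, each in the same direction. That is 14% of the members against 4.77% of all genes. The direction agreed between stiffnesses for 34 of 43 members (79.1%) and for 70.4% of all genes. All 5 siNemp1 libraries lay above all 5 control libraries for IFT52 and IFT57, 4.65% of the members against 2.54% of all genes. All 5 lay below for CEP164 and the dynein heavy chain DYNC2H1, again 4.65%, against 1.97%. Within 1 stiffness the groups did not overlap for 9 of 43 members at 120 kPa (20.9%, against 17.9% of all genes) and for 28 at 10 kPa (65.1%, against 57.3%), both near the background.

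**Figure D3:**
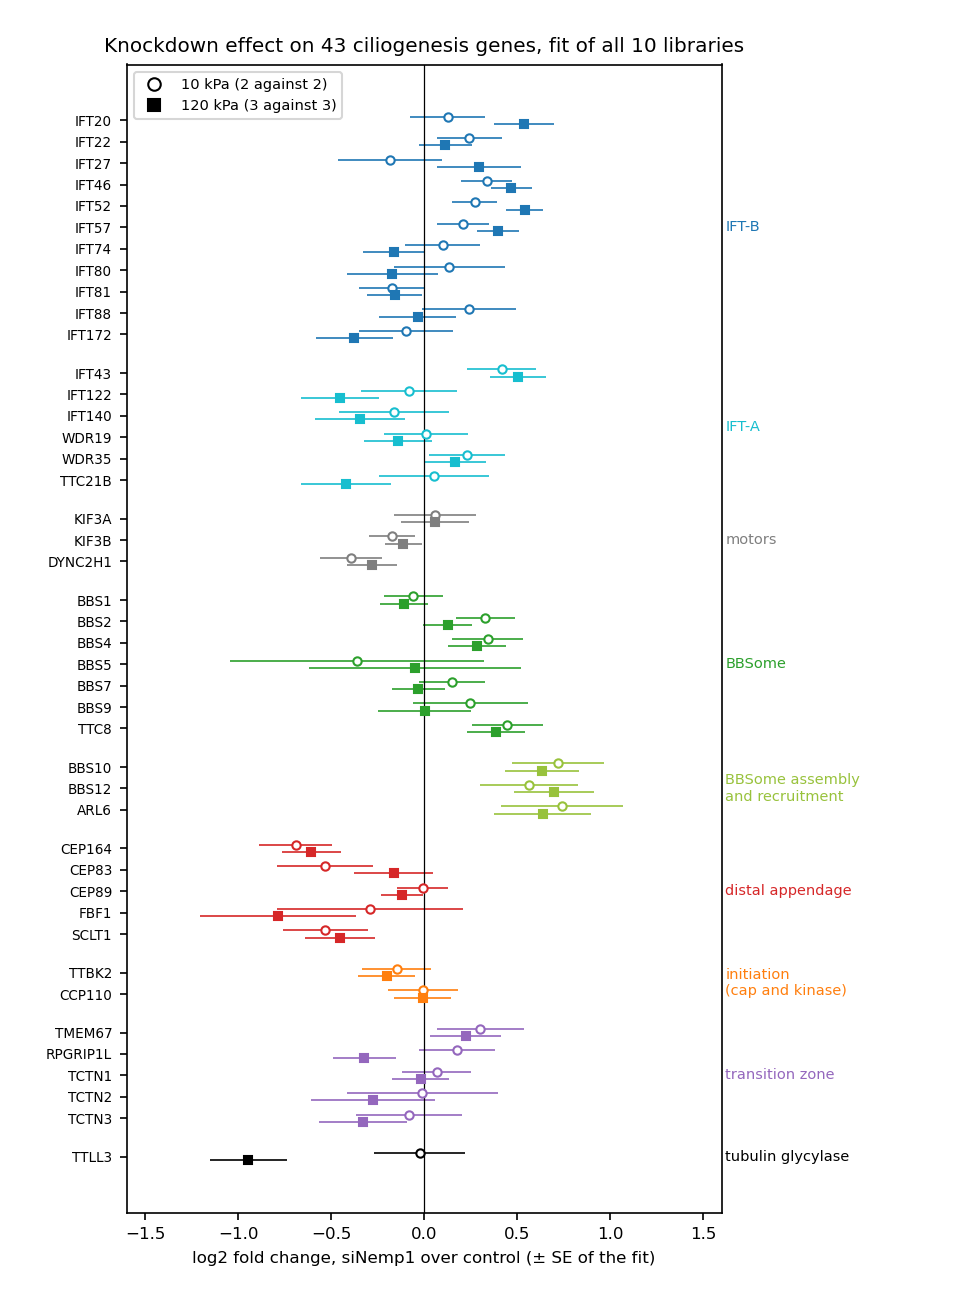
Log2 fold change of siNemp1 over control for each of the 43 members at 10 kPa (open circles) and 120 kPa (filled squares), with the standard error of the fit of all 10 libraries, grouped by role. All 5 distal appendage genes lie below 0 and BBS10, BBS12 and ARL6 above 0 at both stiffnesses, though CEP89 lies near 0 at 10 kPa. TTLL3 lies at -0.95 at 120 kPa and near 0 at 10 kPa.

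IFT-B members split. In the blocked fit at 120 kPa 4 of 11 rose and none fell, and in the fit of the 4 libraries at 10 kPa 3 of 11 rose and none fell. Over all genes 6.24% rose and 2.51% fell in the former fit, and 8.10% rose and 9.19% fell in the latter. IFT52 (ENSG00000101052, chromosome 20, 43590931 to 43647296, GRCh38), a scaffold subunit of the IFT-B core, lay at 44.4 and 48.8 CPM in control against 54.6 and 58 CPM in siNemp1 at 10 kPa. At 120 kPa it lay at 51.3, 47.8 and 52.3 CPM in control against 77.9, 71.4 and 71.3 CPM in siNemp1. Every siNemp1 library was above every control library, and those at 120 kPa stood highest. Averaged over both stiffnesses IFT52 rose by 0.41 on the log2 scale (SE 0.0782, adjusted p = 0.0477 by edgeR without the block, 0.0124 with it). This call without the block was lost when any 1 of 7 libraries was left out, namely each of the 4 at 10 kPa, control replicate 2 at 120 kPa, or siNemp1 replicate 1 or 2 at 120 kPa, with values of 0.37 to 0.44.

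IFT46, another core subunit, lay at 17.7 and 19.9 CPM in control against 24.4 and 23 CPM in siNemp1 at 10 kPa, and at 22.4, 21.8 and 23.5 against 32.3, 32 and 29.3 at 120 kPa. The groups did not overlap at either stiffness. Its average log2 difference was 0.40 (SE 0.0884), with an adjusted p of 0.0569 without the block and 0.0208 with it. IFT20, the subunit that also sits at the Golgi apparatus, lay at 19 and 16.6 CPM in control at 10 kPa, overlapping with 20.2 and 18.7 CPM in siNemp1. At 120 kPa IFT20 lay at 18.6, 19.8 and 27.5 CPM in control against 29.5, 30.2 and 36 CPM in siNemp1, with no overlap. Its log2 difference there was 0.54 (SE 0.163, adjusted p = 0.136) without the block, and it rose by 0.55 (SE 0.116, adjusted p = 0.0184) with it. The difference in effect between stiffnesses, 0.41 (SE 0.26), did not pass (adjusted p = 1).

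IFT57, a peripheral subunit, lay at 38.7 and 40.8 CPM in control against 47.6 and 44.2 CPM in siNemp1 at 10 kPa, and at 35.2, 42 and 44 against 50.7, 51.4 and 57.4 at 120 kPa. No control library reached the lowest siNemp1 library, though the gap at 44.0 against 44.2 CPM was narrow. IFT57 passed at 120 kPa with the block (0.40, SE 0.0996, adjusted p = 0.0329) and not without it (adjusted p = 0.125). The Rab-like IFT22, highest of the IFT-B members in mean CPM, lay at 62.8 and 63.9 CPM in control against 69.3 and 80.6 CPM in siNemp1 at 10 kPa. At 120 kPa its groups overlapped, with 77.4, 61 and 67 against 89.3, 65.7 and 67.5 CPM. It rose in the fit of the 4 libraries at 10 kPa (0.23, adjusted p = 0.0375) and did not pass at 120 kPa, and the difference between stiffnesses was not called. IFT27, a small GTPase that takes part in BBSome exit, lay between 6.88 and 13.8 CPM and passed in none of these fits of the knockdown. The remaining IFT74, IFT80, IFT81, IFT88 and IFT172 had log2 differences of -0.38 to -0.03 at 120 kPa and -0.17 to 0.24 at 10 kPa and passed in none of these fits.

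**Figure D4:**
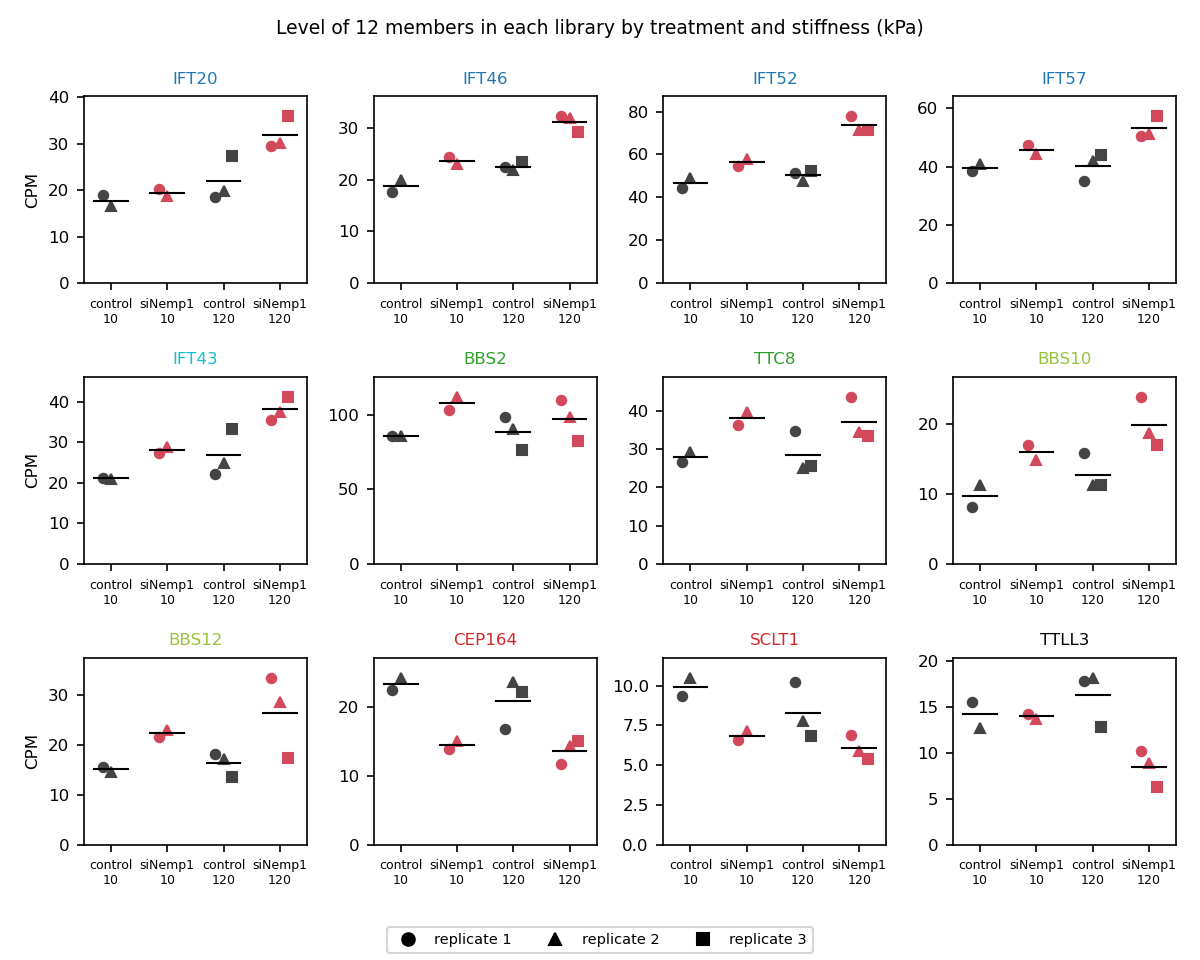
Level in CPM of 12 members in each library, by group (control grey, siNemp1 red; stiffness in kPa) with replicate numbers as symbols and group means as lines, each panel from 0. CEP164 in siNemp1 lies below all controls at both stiffnesses, while TTLL3 in siNemp1 lies within the range of its controls at 10 kPa and below it at 120 kPa.

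In IFT-A the members went both ways. IFT43, a small subunit at the edge of the complex, lay at 21.3 and 20.9 CPM in control against 27.4 and 28.9 CPM in siNemp1 at 10 kPa, and at 22.3, 24.8 and 33.4 against 35.6, 37.4 and 41.2 at 120 kPa. It was higher without overlap at each stiffness, although control replicate 3 at 120 kPa lay above both siNemp1 libraries at 10 kPa. IFT43 rose in the blocked fit at 120 kPa (0.52, SE 0.11, adjusted p = 0.0186) and in the 4 libraries at 10 kPa (0.40, SE 0.0989, adjusted p = 0.00637). Its exons overlap those of TTLL5 on the same strand, so the assignment of reads between both is uncertain. TTLL5 went the other way, at 41.7 and 48.9 CPM in control against 34.4 and 37.8 CPM in siNemp1 at 10 kPa. At 120 kPa TTLL5 lay at 43.2, 38 and 29.6 CPM in control against 35.9, 29.1 and 24.7 CPM in siNemp1. The part of read assignment in these differences was not tested. IFT122, which has an X-box match, lay at 50.3 and 46.9 CPM in control against 45.7 and 46.2 CPM in siNemp1 at 10 kPa. At 120 kPa its libraries overlapped, with 60.7, 42.5 and 34.5 CPM in control against 40.6, 34.6 and 25.6 in siNemp1. Within each replicate number siNemp1 was lower, and IFT122 fell by 0.44 with the block (SE 0.113, adjusted p = 0.0359), whereas without it the adjusted p was 0.301. IFT140, WDR19, WDR35 and TTC21B passed in none of these fits, with values from -0.42 to 0.17 at 120 kPa.

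Among the motors, the kinesin subunits KIF3A and KIF3B passed in none of these fits of the knockdown. KIF3B lay at 64.2 and 58.5 CPM in control against 54.1 and 54.7 CPM in siNemp1 at 10 kPa, and between 46.9 and 55.7 CPM in all 6 libraries at 120 kPa. DYNC2H1 (chromosome 11, 103109410 to 103479863), the heavy chain of the retrograde dynein, lay at 36.6 and 37 CPM in control against 26 and 30 CPM in siNemp1 at 10 kPa. At 120 kPa it lay at 40.7, 30.9 and 31.8 against 30.2, 25.5 and 29.4 CPM. All siNemp1 libraries were below all controls, with 30.2 against 30.9 CPM as the nearest pair. DYNC2H1 fell by 0.41 in the fit of the 4 libraries at 10 kPa (SE 0.0912, adjusted p = 0.00307), and its average difference of -0.34 (SE 0.108) did not pass in the fit of all libraries (adjusted p = 0.119).

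In edgeR's fits of all libraries not corrected for length, 0 of 7 BBSome subunits passed at 120 kPa, with or without the block. Without the block 1 was at an unadjusted p under 0.05 there. At 10 kPa 3 of 7 rose in the fit of the 4 libraries. Over all genes 8.10% rose in that fit at 10 kPa. BBS2, the most abundant subunit in CPM, lay at 85.6 and 85.5 CPM in control against 103 and 112 CPM in siNemp1 at 10 kPa, where it rose by 0.32 (SE 0.0627, adjusted p = 0.00121). At 120 kPa BBS2 overlapped, with 98.8, 90.7 and 76.6 CPM in control against 110, 98.4 and 82.7 in siNemp1. BBS4 lay at 32.8 and 31 CPM in control against 40.8 and 40 CPM in siNemp1 at 10 kPa, and at 39.7, 32 and 28.3 against 46.2, 43.1 and 32.6 at 120 kPa. TTC8, also known as BBS8, lay at 26.7 and 29.1 against 36.3 and 39.7 CPM at 10 kPa and at 34.7, 25 and 25.6 against 43.6, 34.4 and 33.5 at 120 kPa. For both genes the groups were apart at 10 kPa and overlapped at 120 kPa, while siNemp1 was higher within every replicate number. Averaged over both stiffnesses BBS4 rose by 0.31 (SE 0.0795, adjusted p = 0.0329) and TTC8 by 0.42 (SE 0.105, adjusted p = 0.032) with the block, and without it the adjusted p was 0.198 and 0.103. BBS1, BBS5, BBS7 and BBS9 passed in none of these fits.

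BBS10 and BBS12, chaperonin-like proteins that help assemble the BBSome, and ARL6 had the largest log2 differences above 0 in the average. BBS10 (chromosome 12, 76344474 to 76348442) lay at 8.15 and 11.2 CPM in control against 16.9 and 14.8 CPM in siNemp1 at 10 kPa. At 120 kPa it lay at 15.8, 11.2 and 11.2 CPM in control against 23.8, 18.7 and 16.9 CPM in siNemp1. The groups were apart at each stiffness, and control replicate 1 at 120 kPa lay above 1 of the siNemp1 libraries at 10 kPa. BBS10 averaged a log2 difference of 0.68 (SE 0.158, adjusted p = 0.0652) without the block and rose by 0.67 (SE 0.137, adjusted p = 0.015) with it.

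BBS12 (chromosome 4, 122732702 to 122744943) lay at 15.6 and 14.5 CPM in control against 21.5 and 23 CPM in siNemp1 at 10 kPa, and at 18.1, 17.2 and 13.6 against 33.4, 28.6 and 17.3 at 120 kPa. Replicate 3 was the lowest of each group at 120 kPa, and its siNemp1 library lay below control replicate 1. BBS12 rose by 0.66 at 120 kPa with the block (SE 0.134, adjusted p = 0.016) and by 0.55 in the 4 libraries at 10 kPa (SE 0.114, adjusted p = 0.00178). ARL6, whose promoter holds the X-box printed above, lay at 2.72 and 1.89 CPM in control against 3.65 and 4.09 CPM in siNemp1 at 10 kPa, and at 4.16, 2.81 and 3.71 against 6.64, 6.21 and 3.85 at 120 kPa. Its siNemp1 libraries were higher at 10 kPa, and at 120 kPa replicate 3 lay within the control range. ARL6 passed in the average with the block, where it rose by 0.69 (SE 0.197, adjusted p = 0.0473).

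Of the 5 distal appendage genes 1 fell in the blocked fit at 120 kPa and 3 fell in the 4 libraries at 10 kPa, and none rose in either. Over all genes 2.51% fell in the former fit and 9.19% in the latter. CEP164 (ENSG00000110274, chromosome 11, 117314557 to 117413268), the appendage protein that recruits TTBK2, lay at 22.5 and 24.3 CPM in control against 13.9 and 15.1 CPM in siNemp1 at 10 kPa. At 120 kPa it lay at 16.8, 23.6 and 22.2 CPM in control against 11.7, 14.3 and 15.1 CPM in siNemp1. No siNemp1 library reached the lowest control library. CEP164 fell by 0.65 on the log2 scale averaged over both stiffnesses (SE 0.127, adjusted p = 0.0483 without and 0.00809 with the block). Leaving out any of the same 7 libraries as for IFT52 took its call without the block above the threshold, at values of -0.69 to -0.61. An annotated antisense gene, AP000892.1, overlaps its exons, and the sources used here do not state strandedness. This limit is shared: 21 of the 43 members overlap exons of another annotated gene, 8 on the same strand and 18 on the opposite strand. IFT20, IFT122, BBS2, ARL6, CEP83 and SCLT1 are among those with an overlap on the opposite strand.

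SCLT1 lay at 9.34 and 10.5 CPM in control against 6.58 and 7.12 CPM in siNemp1 at 10 kPa, and at 10.2, 7.77 and 6.82 against 6.88, 5.87 and 5.41 at 120 kPa. It was apart at 10 kPa and overlapped at 120 kPa by 6.82 against 6.88 CPM. SCLT1 fell by 0.54 in the 4 libraries at 10 kPa (SE 0.163, adjusted p = 0.0228) and by 0.49 in the average with the block (SE 0.133, adjusted p = 0.0407). CEP83, the protein at the root of the appendage, lay at 7.46 and 7.66 CPM in control against 5.03 and 5.4 CPM in siNemp1 at 10 kPa, where it fell by 0.55 (SE 0.179, adjusted p = 0.0364). At 120 kPa CEP83 overlapped, with 8.24, 5.56 and 5.05 CPM against 5.36, 4.94 and 6.53, and did not pass. CEP89, the highest of the group in CPM, lay between 40.3 and 54.1 CPM in all 10 libraries and passed in none of these fits. FBF1 had the lowest value of the group at 120 kPa (-0.78) with a standard error of 0.42, and did not pass.

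The pair that acts at initiation showed no called change. CCP110 lay between 16.8 and 24.3 CPM, with a log2 difference of -0.01 at each stiffness (SE 0.153 at 120 kPa and 0.187 at 10 kPa). TTBK2 lay between 9.63 and 14.3 CPM, with -0.20 at 120 kPa and -0.15 at 10 kPa. The transition zone members TMEM67, RPGRIP1L, TCTN1, TCTN2 and TCTN3 passed in none of the knockdown fits without correction for length. TCTN3 (chromosome 10, 95663396 to 95694143), a tectonic of the membrane gate with an X-box match, lay at 433 and 446 CPM in control against 401 and 429 CPM in siNemp1 at 10 kPa. At 120 kPa it spread widely within groups, with 498, 400 and 306 CPM in replicates 1, 2 and 3 of control and 419, 330 and 210 CPM in those of siNemp1. Its log2 difference there was -0.33 (SE 0.235, adjusted p = 0.51) without the block. RPGRIP1L, a scaffold of the zone, lay at 22.9 and 22.3 CPM in control against 23.9 and 27.2 CPM in siNemp1 at 10 kPa, and at 25.1, 21.8 and 16.9 against 19.3, 17.2 and 14.5 at 120 kPa. The side on which siNemp1 lay differed between stiffnesses, but the difference of -0.50 (SE 0.263) did not pass (adjusted p = 1). Of the 6 genes with an X-box match, IFT57 rose and IFT122 fell in the blocked fit at 120 kPa, where 8.75% of all genes passed. ARL6 rose in the blocked average, where 10.8% of all genes passed. TCTN3, TCTN1 (0.02 in the average, SE 0.121) and IFT74 (-0.03, SE 0.13) did not pass without correction for length.

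TTLL3 (chromosome 3, 9808086 to 9855138), an enzyme that adds glycine to axonemal tubulin, had the largest difference of all members at 120 kPa. It lay at 17.8, 18.2 and 12.8 CPM in control against 10.2, 8.9 and 6.31 CPM in siNemp1, and no siNemp1 library reached the lowest control. At 10 kPa it lay at 15.6 and 12.7 CPM in control against 14.2 and 13.7 CPM in siNemp1, so siNemp1 lay between both controls. At 120 kPa TTLL3 fell by 0.95 with the block (SE 0.135, adjusted p = 0.00615), and without it the difference was -0.95 (SE 0.205, adjusted p = 0.0682). The difference between the knockdown effects at 120 and 10 kPa was -0.92 (SE 0.32, unadjusted p = 0.0156) and did not pass over all genes (adjusted p = 1 without and 0.595 with the block). TTLL3 shares exons on its strand with the readthrough gene ARPC4-TTLL3. That gene held 12 to 59.8 estimated counts in control and 33.3 to 87.3 in siNemp1 at 120 kPa, against 305 to 393 and 146 to 207 for TTLL3, so the readthrough gene's counts overlapped between the groups while those of TTLL3 did not. Within replicate 1 its counts were lower in siNemp1 (59.8 and 33.3), and within replicates 2 and 3 higher. The assignment of reads between both genes is uncertain.

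Same-numbered libraries varied together at 120 kPa. The members' median log2 difference of replicate 3 over replicate 1 was -0.41 in control and -0.26 in siNemp1, against 0.03 and 0.00 for all genes. Replicate 3 was below replicate 1 for 33 members in control and 28 in siNemp1. IFT20, IFT43 and IFT27 were among those that lay the other way in both groups, with IFT27 at 6.88 and 12.8 CPM in control against 9.63 and 13.8 CPM in siNemp1. The deviations of the same-numbered libraries from their group means correlated over the members at 0.589, 0.608 and 0.389 for replicates 1, 2 and 3 at 120 kPa, a description over 43 genes that share their libraries. The sources used here do not say what the numbers stand for.

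Log2 differences also ran with transcript length. Across the members Spearman's rho with the length of the longest coding transcript was -0.43 at 120 kPa and -0.297 at 10 kPa, and across the 13826 genes tested that have a length -0.293 and -0.248. These correlations are across genes of the same libraries and are given as descriptions. IFT43 (848 nt), IFT20 (1071 nt), IFT52 (1757 nt) and IFT46 (1819 nt) are among the shortest members, and DYNC2H1 (13678 nt) is the longest. A further setting, chosen after seeing the data, removed each library's trends with length and GC content. Under it the blocked fit at 120 kPa called 7 members (7.23% of all genes). These were IFT52, TTC8, BBS10 and BBS12 upward and CEP164, TCTN3 and TTLL3 downward. IFT20 (0.35, adjusted p = 0.112), IFT46 (0.35, adjusted p = 0.0678), IFT57 (0.33, adjusted p = 0.0871), IFT43 (0.33, adjusted p = 0.106) and IFT122 (-0.34, adjusted p = 0.0808) kept their direction and no longer passed. In the 4 libraries at 10 kPa that setting called 9 (12.3% of all genes), and in the average without the block 0 (0.329%).

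**Figure D5:**
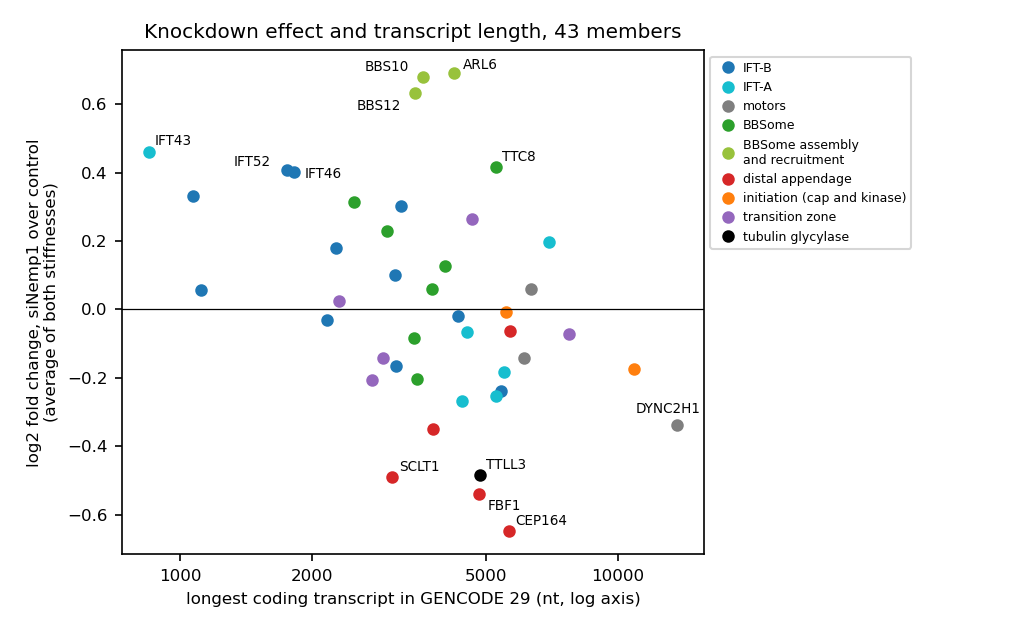
Log2 fold change of siNemp1 over control, averaged over both stiffnesses in the fit of all 10 libraries, against the length of the longest coding transcript (log axis) for the 43 members, coloured by role. IFT43, IFT52 and IFT46 lie high among short transcripts, while the distal appendage genes CEP164, SCLT1 and FBF1 lie below members of similar length.

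The study also asked how stiffness acts. Between 120 and 10 kPa in control cells 0 of 43 members passed in edgeR and in DESeq2, with 1 (KIF3B, -0.25, SE 0.111) at an unadjusted p under 0.05 in edgeR, and 0.0143% of all genes passed. The members' median difference was -0.01. In control cells 5 of 43 members had groups that did not overlap (11.6%, against 22.2% of all genes): IFT46, IFT43, BBS10 and ARL6 higher and KIF3B lower on the stiff substrate. In siNemp1 cells 0 members passed in edgeR, where 0% of all genes passed, and 7 were at an unadjusted p under 0.05, with a lowest adjusted p of 0.315. DESeq2 gave 17 of the members an adjusted p and called 0 of them, and called 98 of the 5107 genes that received one. The values of these 7 were 0.71 for IFT20, 0.60 for IFT27, 0.40 for IFT46, 0.39 for IFT52, 0.43 for IFT43, -0.59 for RPGRIP1L and -0.72 for TTLL3. Groups did not overlap in siNemp1 cells for 19 members (44.2%, against 33.7% of all genes), 7 higher and 12 lower at 120 kPa, beside 18.2% and 15.5% of all genes. Among the lower 12 were 5 IFT-B subunits (IFT74, IFT80, IFT81, IFT88 and IFT172). For the difference between the knockdown effects 0 members passed in either tool, with 1 (TTLL3) at an unadjusted p under 0.05 in edgeR and 0.00715% of all genes called.

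Genes of the same pathways outside the member list were counted in the same fits. For all lists from here on, the shares over all genes were 6.24% up and 2.51% down in the blocked fit at 120 kPa. In the 4 libraries at 10 kPa they were 8.10% up and 9.19% down. Of 16 further IFT and motor subunits tested, 3 rose and none fell in the blocked fit at 120 kPa. These were IFT70A (0.60), IFT70B (0.60) and the light chain DYNLL1 (0.53). IFT70A and IFT70B are near-identical copies, so reads may be split between them. Of 12 further BBSome and ARL genes 2 rose there, the BBSome subunit BBIP1 (0.61, adjusted p = 0.0195) and the ARL3 regulator RP2 (0.70, adjusted p = 0.0114). RP2 lay at 13.8, 12 and 13.5 CPM in control against 23.1, 20.8 and 20.2 CPM in siNemp1 at 120 kPa, with no overlap.

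Further transition zone genes went both ways. Of 18 tested, 1 rose and 1 fell in the blocked fit at 120 kPa, and 3 rose and 2 fell in the 4 libraries at 10 kPa. B9D1, a subunit of the gate complex, lay at 43.2 to 50.7 CPM over all 5 control libraries and 60.2 to 71.3 over all 5 siNemp1 libraries. It rose by 0.43 in the average without the block (SE 0.0782, adjusted p = 0.0459). AHI1 fell by 0.46 at 120 kPa with the block (adjusted p = 0.0229) and by 0.31 in the 4 libraries at 10 kPa (adjusted p = 0.013), and CEP290 fell by 0.53 in the latter (adjusted p = 0.00107). Of the genes of centrioles, satellites and the ciliary vesicle none rose and 3 of 27 fell at 120 kPa (OFD1, DZIP1 and C2CD3), and 6 of 26 fell at 10 kPa. Their median log2 difference was -0.185 at 120 kPa with the block, beside 0.01 for all genes. Of 11 further tubulin-modifying enzymes tested, 1 rose at 120 kPa, the deglutamylase AGBL5 (0.41), and 2 fell at 10 kPa, TTLL5 and TTLL4.

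Hedgehog signalling is read out through the primary cilium. Of 13 pathway genes tested 0 rose and 2 fell in the blocked fit at 120 kPa, and 2 of 11 fell in the 4 libraries at 10 kPa, in each case EVC and SUFU. EVC, a protein of the ciliary base that relays the signal, lay at 24.9 to 33.3 CPM over the control libraries and 17 to 24.7 over the siNemp1 libraries. It fell by 0.51 in the average without the block (SE 0.104, adjusted p = 0.0499). SUFU, the inhibitor of GLI factors, fell by 0.64 at 120 kPa with the block (SE 0.138, adjusted p = 0.0196). The pathway's target genes did not pass. The receptor and target PTCH1 lay at 1.69 to 3.75 CPM with an average difference of -0.61 (SE 0.206, adjusted p = 0.138), and GLI1 was under 0.6 CPM in every library. The transducer SMO had -0.07 (SE 0.153). Of 4 tested RFX and FOXJ1 factors none passed at 120 kPa, with 1 (RFX7, -0.55) lower at 10 kPa.

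Some proliferation genes also fell in these contrasts. Of 12 tested, 3 were called lower and none higher in the blocked fit at 120 kPa (MKI67, CENPF and ASPM). In the 4 libraries at 10 kPa 5 were called lower and none higher. In each of these fits 4 of the 12 lay above 0, up to 0.286 at 120 kPa and 0.15 at 10 kPa. CCNB1 lay at 135, 102 and 116 CPM in control against 192, 144 and 104 CPM in siNemp1 at 120 kPa. MKI67, a marker of cycling cells, lay at 74.5 to 104 CPM over the control libraries and 31.5 to 67.4 over the siNemp1 libraries. The summed level of the list ran from 995 to 1006 CPM in control and 878 to 900 in siNemp1 at 10 kPa, and from 805 to 1021 in control and 551 to 1008 in siNemp1 at 120 kPa. All 12 genes of this list were above 0.5 CPM in at least 1 library. The part of proliferation in the members' differences was not tested. In bulk RNA, fewer cells of a kind and less RNA per cell cannot be told apart. Of 6 fibroblast markers tested, 1 fell at 120 kPa with the block (THY1, -0.73). In the 4 libraries at 10 kPa 2 fell (THY1, -0.38, and DCN, -0.34) and 1 rose (FAP, 0.20), with 4 of 6 above 0 and a median of 0.08. At 120 kPa the summed level of the list was 800 to 1101 CPM in control against 395 to 927 in siNemp1. At 10 kPa the sum was 1094 to 1099 CPM in control and 935 to 938 in siNemp1, most of it THY1, which lay at 832 in both controls against 638 and 655 CPM. Altogether 2 of the 9 markers in the table were under 0.5 CPM in every library (COL1A2, and COL3A1 at 0). All libraries are of the RPE-1 line, and the markers do not show that other cells were present. How the levels of these markers relate to the members' differences was not tested.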

How the data were processed

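The titles of the 10 libraries gave treatment, stiffness and replicate number. Per the labels' protocols, total RNA was depleted of ribosomal RNA and reverse transcribed from random hexamers. Tools named in the submitters' processing notes are Salmon 1.80 (as written there), Trimmomatic 0.33, FastQC 0.11.9 and edgeR, and the build is GRCh38. The sources used here do not name the annotation used for counting. In the deposited table are estimated counts per gene made by the authors, not scaled between libraries, in 10 libraries of 17.95 to 23.8 M.

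Estimated counts were rounded, filtered with filterByExpr, scaled with TMM and fitted with edgeR 4.0.16 (limma 3.58.1, R 4.3.3) as robust quasi-likelihood models with 1 mean per group (6 residual degrees of freedom). Tests were two-sided, with Benjamini-Hochberg adjustment over all 13990 genes tested, and an adjusted p under 0.05 was called. CPM uses TMM scaling, and group fold changes carry the standard error of the fit. Recovery of known changes was tested on simulated data. Their sizes of change, spread and replicate effect were set in advance and differ from those seen here. That test therefore checks that the fits run as intended and not the calls made here.

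Pairing by replicate number was checked from each library's deviation from its group mean, correlated across genes between control and siNemp1 of 1 number. It came to 0.426, 0.157 and 0.359 at 120 kPa and 0.0171 at 10 kPa. The pairing at 120 kPa comes from the data and the numbers in the titles. The replicate block adds the number as a term shared by both stiffnesses (4 residual degrees of freedom), and its value is given where it changed a call. At 10 kPa the numbers did not pair the libraries (over the members the correlation was -0.265), and the blocked averages carry the term there too.

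Alternatives were DESeq2 1.42.0, other scalings and filters, fits of only the groups compared and each library left out in turn. Fits without each pair at 120 kPa, and with length and GC trends removed (mgcv 1.9.3), were added after the data were seen. Positions come from GENCODE 29 on GRCh38, promoters from RefSeq.

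The members, the other gene lists, the marker lists and the tests were chosen with earlier results of these data known. Values in every library are given for members called in any fit (at most 14 by smallest p), for the 2 largest rises and falls of each contrast among members of at least 2 CPM, and for the member with the highest mean in each role. ARL6, CEP83, IFT22 and SCLT1 were called beyond these 14 and are named by the other parts of the rule. Of the other lists, up to 4 called genes each are named, with PTCH1, GLI1 and SMO.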

Additional observations from a re-analysis of the deposited data

How the results depend on the processing

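Counts of members called depended on the fit. At 120 kPa the count without the block was 0. It was 4 in DESeq2, 4 with no filter on low counts, 1 with at least 5 CPM in 2 libraries, 10 with the replicate block, 11 with the block in only the groups compared, and 7 with the block and length and GC trends removed. Without pair 1 the blocked fit called 10 members, without pair 3 it called 6, and without pair 2 it called 0. Leaving out 1 library gave 0 to 4, the 4 without control replicate 3 at 120 kPa. At 10 kPa the count was 0, and 13 in only the groups compared, 13 with the block there and 9 with length and GC trends removed there. The average over stiffnesses gave 2. It gave 8 in DESeq2, 0 with DESeq2 size factors in edgeR, 0 with upper-quartile scaling, 5 with no filter on low counts, 4 with at least 5 CPM in 2 libraries and 13 with the replicate block. The blocked average gave 15, 6 and 12 without pairs 1, 2 and 3, 0 with length and GC trends removed, and 7 with that and the block. Leaving out 1 library gave 0 to 5. In siNemp1 cells between stiffnesses the count was 0, and 2 with no filter, where 529 of 23547 genes were called. The causes were not tested.

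The members' median log2 difference at 120 kPa was -0.05, with a range of -0.212 to 0.056 when 1 library was left out, the lowest without control replicate 3. It was -0.22 with the block without pair 3. With the block without pair 2, the median between stiffnesses was 0.16 in control cells (main value -0.01) and 0.03 in siNemp1 cells (-0.13), and without pair 3 the median difference between knockdown effects was -0.19 (-0.08). Of 1074 values of named members under alternatives 912 kept direction and call, 141 gained a call, 20 lost one and 1 reversed, SCLT1 in control cells between stiffnesses (0.072, block without pair 2). The 20 were IFT52 and CEP164 in the average, 10 each.

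Over all genes at 120 kPa, edgeR without the block called 0, DESeq2 642, the fit with no filter 643, that with at least 5 CPM in 2 libraries 119 and that with the block 1224. At 10 kPa the fit of all libraries called 0 and that of only its 4 libraries 2308. The average gave 180 (120 higher, 60 lower), 71 with upper-quartile scaling (35 higher, 36 lower), 0 with DESeq2 size factors and 1504 with the block. BBS5 and FBF1 rest on few reads, so depth limits what they can show.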
